A study of Mus musculus with 12 samples.

Results

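The genotype effect common to 3 conditions was examined in islets of mice that lack Bmal1 in beta cells. All 6 knockout libraries were set against all 6 control libraries with condition as a block, and the members are the genes whose knockout effect had the same sign in each condition. Of 17411 genes tested, 3663 (21.0%) had the same sign in all 3 conditions, 1832 higher and 1831 lower in knockout. Of these, 240 also passed the test of genotype at an adjusted p of 0.05 and are called shared here (1.38% of all genes tested). In knockout 176 of them were higher (1.01% of all genes tested) and 64 lower (0.368%). Because the rule required a common sign, that sign is not a result. The sizes, the genes and what the genes have in common are described.

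Knockout mice had the genotype Bmal1fl/flRIPCreERT/+, in which the rat insulin promoter drives a tamoxifen-inducible Cre in mice whose Bmal1 alleles are both floxed. Control mice were Bmal1fl/fl and their label names no transgene. Islets of each genotype were taken 24 h after citrate buffer (vehicle), 24 h after streptozotocin (STZ), a beta-cell toxin given at a submaximal dose, or 4 wk after STZ, and each of the 6 groups holds 2 libraries, A and B. Whether A and B are different animals is not stated, so the p-values reflect differences between libraries and no more; the labels also give neither strain, age nor the clock hour of collection. Vehicle libraries were all taken at 24 h, so the 4 wk groups have no vehicle of their own time. A beta-cell Cre leaves Bmal1 in the other cells of an islet preparation.

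BMAL1, the product of Arntl, pairs with CLOCK or NPAS2 and activates genes that carry E-boxes. Among these genes are the PER and CRY repressors, which close the loop, and the REV-ERB repressors (Nr1d1 and Nr1d2). REV-ERBs and the ROR activators compete for ROR response elements (ROREs) in a further set of clock genes, which includes Arntl itself. In beta cells the clock is known to set the timing of insulin secretion.

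The libraries held 101772241 to 127207523 counts each. Ins2, the defining beta-cell transcript, was high in every library, between 13081 and 84733 CPM (counts per 1e6 of the TMM-scaled library size). Acinar genes, which encode the digestive enzymes of the exocrine pancreas, took 12.3 to 41.6% of counts, and their order between the genotypes changed with condition. Their share was 12.5 and 12.3% in knockout against 38.1 and 37.2% in control after vehicle, 40.9 and 41.6% against 25.1 and 25.5% at 24 h after STZ, and 25.3 and 25.5% against 21.2 and 20.9% at 4 wk. In such bulk libraries, fewer cells of a type and less RNA per cell cannot be told apart.

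The targeted gene was examined first. Exon 8 of Arntl (chr7:113284999-113285156, mm10), which encodes part of the DNA-binding and dimerisation domain, was singled out with earlier results of these data known, and no label says which exon is floxed. Its sequence is shown because its coverage is the check of the genotype labels.

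Arntl exon 8: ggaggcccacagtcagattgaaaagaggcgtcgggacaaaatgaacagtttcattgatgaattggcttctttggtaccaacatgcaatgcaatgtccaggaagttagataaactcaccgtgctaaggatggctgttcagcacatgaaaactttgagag

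Coverage of this exon over the mean of the transcript was 0.630 and 0.624 in knockout against 1.71 and 2.00 in control after vehicle, 1.36 and 0.945 against 1.74 and 1.67 at 24 h after STZ, and 1.01 and 0.687 against 1.56 and 1.59 at 4 wk. The highest knockout library was under the lowest control library. The mean was 0.876 ± 0.289 in knockout and 1.71 ± 0.157 in control (SD, n = 6 each), a difference of -0.94 on the log2 scale (exact two-sided permutation test within condition, p = 0.00926, the smallest that this design allows). Among the 20 exons of this transcript the difference was lowest at exon 8, with -0.55 at exon 7 and -0.36 at exon 9. These ratios depend on the rest of the transcript, whose mean coverage after vehicle was 63.7 and 62.8 in knockout against 20.8 and 18.9 in control. Scaled to library size, exon 8 itself was not lower after vehicle, at log2 values of -1.15 and -1.05 in knockout against -1.25 and -1.11 in control. The whole Arntl transcript was not shared: its CPM was 17.8 and 19.9 in knockout against 8.79 and 8.36 in control after vehicle, but 11.3 and 11.6 against 20.6 and 20.4 at 4 wk after STZ. Its log2 fold change was 1.14 ± 0.11 (SE) after vehicle, -0.26 ± 0.11 at 24 h and -0.84 ± 0.11 at 4 wk, with adjusted p of 0.000238, 0.0877 and 0.000548 in edgeR's quasi-likelihood test.

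Most genotype effects did not have the same direction in all conditions. Tested one condition at a time, 342 genes were higher (1.96%) and 1337 lower (7.68%) in knockout after vehicle, 4119 (23.7%) and 3372 (19.4%) at 24 h after STZ, and 3465 (19.9%) and 1374 (7.89%) at 4 wk. The 3 comparisons share no library. Across the 17411 genes, the log2 fold change after vehicle had a Pearson correlation of -0.29 with that at 24 h after STZ and of -0.25 with that at 4 wk, while the 2 STZ time points correlated at 0.60. All genes of a comparison share its libraries and their makeup, so these values only describe the tables. Signs matched between vehicle and 24 h after STZ in 31.2% of genes, between vehicle and 4 wk in 34.0%, and between the STZ time points in 76.3%. Of 3601 genes past the threshold with a common sign at both STZ time points, 2964 had the opposite sign after vehicle, 937 of them past the threshold there as well.

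**Figure D1:**
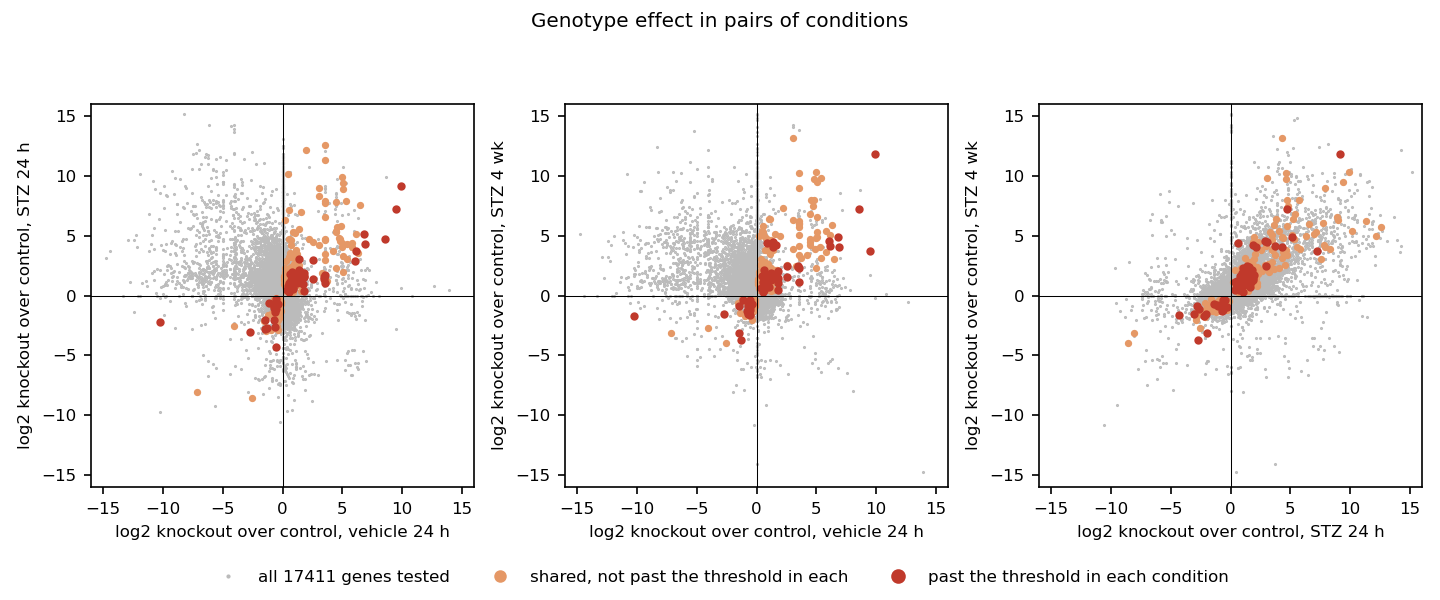
Log2 fold change, knockout over control, of each gene in one condition (x axis) against another (y axis). Grey dots are all 17411 genes tested, orange dots shared genes, and red dots the 57 genes past the threshold in each condition. Grey dots fill the quadrants of opposite sign between vehicle and either STZ time point, and coloured dots lie in the quadrants of like sign by the rule that chose them.

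A stricter reading asks for the threshold to be passed in each condition separately. In all, 1026 genes passed it in all 3 conditions, and 969 of those had mixed signs. The other 57 had the same sign throughout (0.327% of genes tested), 40 higher (0.230%) and 17 lower (0.0976%) in knockout, and 53 of them were also among the 240 shared genes. For 179 of the 240, both knockout libraries lay on the same side of both control libraries in each condition, against 628 (3.61%) of all genes tested. In 14 of the 240, at least one condition had no more than 3 counts in either genotype, so the sign there rests on almost no counts. The median block log2 fold change was 1.67 over the shared genes higher in knockout and -0.88 over those lower, beside 0.00 over all genes tested. The 240 were chosen by a test on these same libraries, so these medians and the 179 follow in part from that choice. Just inside the threshold were Echdc2 (-0.37), Mgl2 (1.97) and Prdm1 (0.50), each at an adjusted p of 0.0499, and just outside it Sstr3 (-0.997, 0.05001), Apof (0.97, 0.0505) and Egf (-0.43, 0.0505). The split depends on scaling: with total counts in place of TMM, 964 genes were shared, 937 higher and 27 lower, and with pan-endocrine genes as the scale 144 were, 134 higher and 10 lower. The pan-endocrine scale moved the median of all genes by 0.61 on the log2 scale. The count also depends on single libraries, from 95 without control STZ 4 wk B to 669 without knockout vehicle B.

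**Figure D2:**
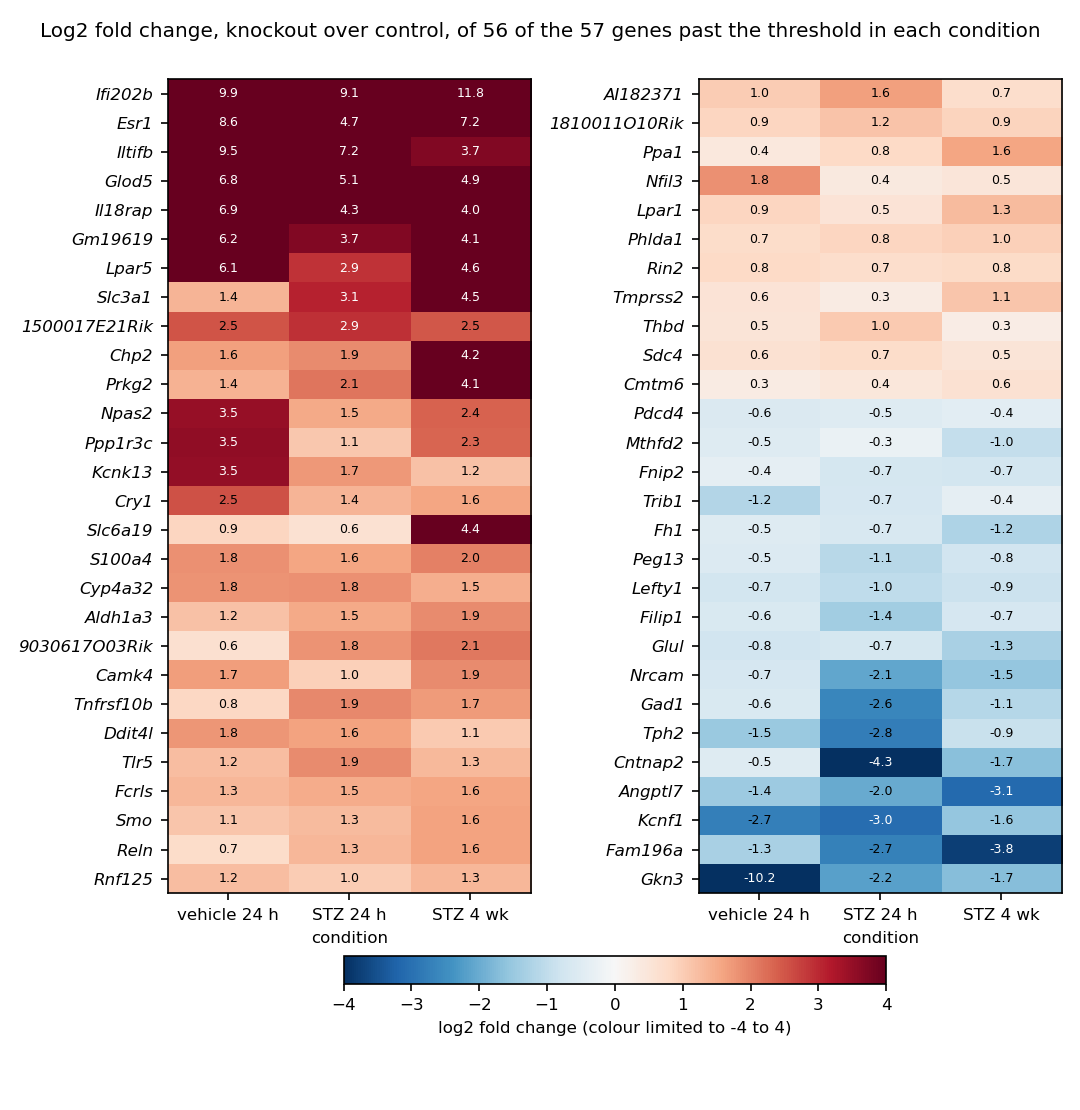
Log2 fold change, knockout over control, of 56 of the 57 genes past the threshold in each condition, with the 3 conditions as columns and genes as rows. Genes higher in knockout come first, from Ifi202b with values of 9.12 to 11.84, and the 17 lower ones end with Gkn3. Fitted values of genes with no counts in a group are not bounds.

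Clock genes of the RORE arm were among the members. Of 8 clock activators and RORE-driven genes listed, 3 passed the threshold in each condition (0.327% of genes tested), all higher in knockout: Npas2, Cry1 and Nfil3. Under the block fit 2 of the 8 were shared, Npas2 and Cry1. The median block log2 fold change of the 8 was -0.00054, beside 0.00 over all genes tested. Arntl, Arntl2 and Clock did not keep one sign, and Rora and Rorb had lower values (-0.34, adjusted p = 0.192, and -1.12, adjusted p = 0.345).

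Npas2 (chr1:39194272-39363240), the partner that can take the place of CLOCK, had 19.3 and 19.8 CPM in knockout against 1.93 and 1.54 CPM in control after vehicle. At 24 h after STZ it had 5.37 and 6.04 CPM in knockout against 2.03 and 1.98 CPM in control, and at 4 wk 16.3 and 20.2 CPM against 2.98 and 4.17 CPM. The genotypes did not overlap in any condition, and the log2 fold changes were 3.50 ± 0.22, 1.51 ± 0.20 and 2.35 ± 0.21 (SE), with adjusted p of 1.86e-05, 0.000397 and 5.28e-05.

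Cry1 (chr10:85131700-85185054), the late repressor of the loop, carries both E-box and RORE control. It had 46.9 and 52.9 CPM in knockout against 7.70 and 9.49 CPM in control after vehicle, 19.3 and 21.4 CPM against 7.70 and 8.21 CPM at 24 h after STZ, and 37.8 and 35.7 CPM against 13.4 and 11.4 CPM at 4 wk. The genotypes did not overlap in any condition, and its log2 fold changes were 2.54 ± 0.15, 1.36 ± 0.14 and 1.57 ± 0.14. Nfil3 (chr13:52967209-52981039), which represses D-box genes, had 41.9 and 40.0 CPM in knockout against 11.8 and 11.4 CPM in control after vehicle. After STZ its gap was smaller, with 15.4 and 16.5 CPM in knockout against 10.97 and 13.3 CPM in control at 24 h and 21.0 and 25.3 CPM against 15.7 and 17.5 CPM at 4 wk. The log2 fold changes of Nfil3 were 1.82 ± 0.14, 0.40 ± 0.14 and 0.48 ± 0.14, and its block fit did not pass the threshold (0.89 ± 0.23, adjusted p = 0.0726). All 3 genes differed most after vehicle and least at 24 h after STZ, and the test of a difference between conditions passed for each of them, with adjusted p of 0.00181 for Npas2, 0.00312 for Cry1 and 0.000742 for Nfil3.

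**Figure D3:**
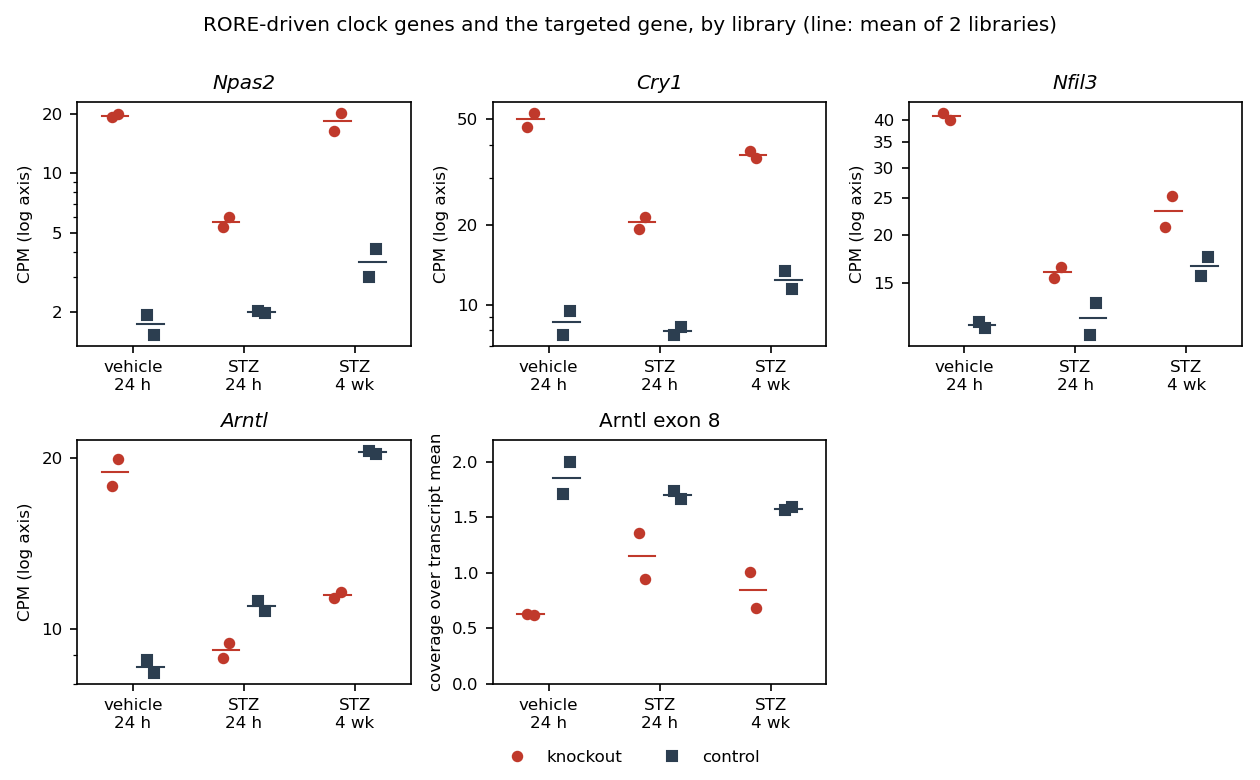
CPM (log axis) in each library for Npas2, Cry1, Nfil3 and Arntl, and coverage of Arntl exon 8 over the transcript mean (linear axis), with knockout left of control in each condition and lines at the mean of 2 libraries. Knockout lies above control in all 3 conditions for the first 3 genes and changes sides for Arntl. Coverage of exon 8 over the transcript mean is lower in every knockout library.

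Promoter windows from RefSeq (250 bases before to 50 after the start of a gene, GRCm38.p6) were searched on both strands for the E-box CACGTG, the RORE core TAGGTCA and the D-box TTATGNAA. Windows were found for 12901 of the 17411 genes tested, 182 of the 240 shared genes and 41 of the 57. An E-box was found in 12.1% of the shared genes and 9.76% of the 57, beside 10.6% of genes tested. A RORE core was found in 2.75% and 7.32%, beside 2.504%, and a D-box in 2.198% and 4.88%, beside 2.87%. The RORE core counts are small: the 3 of the 57 were Nfil3, Glul and S100a4. The Npas2 window held none of the 3 motifs. The 4 windows below are those of the clock genes and of Ppp1r3c that held a match, with the match in capitals. The Nfil3 match lies on the opposite strand, so TGACCTA is read there, and for Arntl the window of its later start is shown. The windows are chr13:52980990-52981289 (minus strand) for Nfil3, chr7:113207261-113207560 (plus strand) for Arntl, chr10:85185005-85185304 (minus strand) for Cry1 and chr19:36736555-36736854 (minus strand) for Ppp1r3c.

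Nfil3 promoter: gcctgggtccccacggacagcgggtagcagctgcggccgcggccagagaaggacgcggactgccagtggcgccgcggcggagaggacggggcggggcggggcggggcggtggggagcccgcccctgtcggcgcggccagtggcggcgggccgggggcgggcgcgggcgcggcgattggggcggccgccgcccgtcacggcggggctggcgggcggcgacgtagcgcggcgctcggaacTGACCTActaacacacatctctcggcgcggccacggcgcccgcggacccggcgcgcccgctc

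Arntl promoter: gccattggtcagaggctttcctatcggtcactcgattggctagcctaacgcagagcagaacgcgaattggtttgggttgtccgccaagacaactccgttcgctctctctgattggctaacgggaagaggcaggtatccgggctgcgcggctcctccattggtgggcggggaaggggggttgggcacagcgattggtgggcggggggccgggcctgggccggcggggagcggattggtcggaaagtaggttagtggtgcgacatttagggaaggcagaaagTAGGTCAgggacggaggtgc

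Cry1 promoter: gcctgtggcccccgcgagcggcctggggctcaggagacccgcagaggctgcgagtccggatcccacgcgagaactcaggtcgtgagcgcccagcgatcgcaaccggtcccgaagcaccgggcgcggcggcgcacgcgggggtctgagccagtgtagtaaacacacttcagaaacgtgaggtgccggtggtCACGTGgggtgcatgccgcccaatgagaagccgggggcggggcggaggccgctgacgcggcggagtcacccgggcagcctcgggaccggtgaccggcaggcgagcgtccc

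Ppp1r3c promoter: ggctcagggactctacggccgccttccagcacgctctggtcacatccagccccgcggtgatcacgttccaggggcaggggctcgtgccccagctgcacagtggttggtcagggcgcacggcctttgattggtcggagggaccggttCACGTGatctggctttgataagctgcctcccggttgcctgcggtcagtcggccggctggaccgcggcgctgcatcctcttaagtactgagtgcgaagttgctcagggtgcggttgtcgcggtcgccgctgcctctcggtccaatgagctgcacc

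A match in these letters is a description and not evidence of binding.

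None of 9 repressors driven through E-boxes and none of 8 outputs driven through E- and D-boxes was shared. Cry1, a repressor with E-box control as well, was listed with the RORE-driven genes, so the absence among the 9 depends on that placement. With 1.38% of all genes shared, lists of this size can hold none without standing apart from the rest. After vehicle 6 of the 9 repressors and 3 of the 8 outputs were lower in knockout, beside 7.68% of all genes. Nr1d1, which encodes REV-ERB alpha, had 7.74 and 4.98 CPM in knockout against 33.8 and 29.3 CPM in control after vehicle (log2 fold change -2.31 ± 0.40, adjusted p = 0.00651). At 24 h after STZ it had 25.2 and 30.3 CPM against 31.5 and 36.5 CPM, and at 4 wk 23.7 and 49.2 CPM against 21.3 and 38.6 CPM, where the genotypes overlapped. Dbp, a D-box activator, had a log2 fold change of -1.45 ± 0.26 after vehicle and 0.86 ± 0.26 at 4 wk (adjusted p = 0.00815 and 0.0374). Per2 was 1.09 ± 0.12 after vehicle, 0.02 ± 0.12 at 24 h and 0.53 ± 0.12 at 4 wk (adjusted p = 0.00051, 0.905 and 0.0102). Of the clock genes described, Npas2 and Cry1 were shared, and Nfil3 passed by the stricter rule.

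Some members had no counts in control in at least one condition. Ifi202b (chr1:173962569-173982844), an interferon-inducible DNA-binding protein of the PYHIN family whose expression is known to differ widely between inbred strains, had 0.548 and 1.52 CPM in knockout and 0 counts in control after vehicle. It had 19.9 and 18.1 CPM in knockout against 0 and 0.0641 CPM in control at 24 h after STZ, and 4.83 and 3.17 CPM against 0 counts at 4 wk. With a floor of 3 counts over a group, Ifi202b was at least 60.2-fold higher in knockout after vehicle and at least 340-fold higher at 4 wk. It was the 1 shared member of 8 PYHIN genes tested and of 10 genes listed as variable between inbred strains. Iltifb, a copy of the interleukin-22 gene next to Il22, was at least 44.5-fold higher in knockout after vehicle and at least 12.6-fold higher at 24 h after STZ, at 0.143 to 1.24 CPM in the knockout libraries; reads of the 2 near-identical copies may be split between them. Il18rap, a subunit of the interleukin-18 receptor, was at least 7.58-fold, Glod5 at least 7.12-fold, Gm19619 at least 4.59-fold and Lpar5, a receptor for lysophosphatidic acid, at least 4.36-fold higher after vehicle, each from 19 to 33 counts in knockout and 0 in control. Control had counts of all of these genes in other conditions: Glod5 had 59.8 and 40.4 CPM in knockout against 1.97 and 1.39 CPM in control at 4 wk.

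Esr1, the oestrogen receptor alpha gene (chr10:4611989-5005633), had 358.7 and 323.3 CPM in knockout against 0.968 and 0.842 CPM in control after vehicle, 51.1 and 54.9 CPM against 2.29 and 1.67 CPM at 24 h after STZ, and 118.3 and 130.0 CPM against 0.978 and 0.706 CPM at 4 wk. Exons 6 to 9 carried most of this difference, with a mean coverage, scaled to library size, of 36.1 and 33.7 in knockout against 0.0102 and 0.00823 in control after vehicle. Exons 1 to 5 had 0 and 0.00425 against 0 and 0. Exon 10, the last, had 0.900 and 0.547 in knockout against 0.0116 and 0.0103 in control after vehicle. Exons 6 to 9 encode most of the ligand-binding domain, the part of the receptor that a CreERT fusion contains, so RNA of the transgene and of the gene cannot be told apart there. All 6 knockout libraries were above all 6 control libraries.

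Ppp1r3c and 1500017E21Rik, neighbours on chromosome 19 (chr19:36731731-36736604 and chr19:36619418-36689479), both passed in each condition. Ppp1r3c, a subunit that directs protein phosphatase 1 to glycogen, had 49.97 and 60.3 CPM in knockout against 3.98 and 5.50 CPM in control after vehicle, 23.002 and 20.3 CPM against 10.2 and 10.4 CPM at 24 h after STZ, and 59.9 and 46.7 CPM against 11.2 and 9.95 CPM at 4 wk. Its log2 fold changes were 3.54 ± 0.21, 1.07 ± 0.19 and 2.33 ± 0.19, a pattern over the conditions like that of Npas2, Cry1 and Nfil3. The long noncoding gene 1500017E21Rik had values of 2.52 ± 0.33, 2.93 ± 0.33 and 2.49 ± 0.32, and no difference between conditions was detected (adjusted p = 0.669). Ppp1r3c was the 1 shared gene among 22 glycogen genes tested, whose median was 0.15.

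Further genes among the 40 higher in each condition had varied roles. Smo, the transducer of the Hedgehog signal, had 8.07 and 7.05 CPM in knockout against 3.19 and 3.87 CPM in control after vehicle, 11.7 and 11.8 CPM against 4.76 and 5.0001 CPM at 24 h after STZ, and 11.05 and 11.3 CPM against 3.24 and 4.08 CPM at 4 wk. Its log2 fold change was 1.10 ± 0.17, 1.27 ± 0.17 and 1.61 ± 0.17, and no difference between conditions passed (adjusted p = 0.244). S100a4, a calcium-binding protein, had 1.82 ± 0.20, 1.57 ± 0.20 and 2.02 ± 0.21, and its neighbour S100a6 was shared too (block 1.25, adjusted p = 0.0284). Camk4, a calmodulin-dependent kinase, had 1.68, 0.96 and 1.89, and Tnfrsf10b, a death receptor and p53 target, 0.82, 1.93 and 1.69. Tlr5, the receptor for bacterial flagellin, had block values of 1.48 ± 0.22, Lpar1 0.89 ± 0.14, Kcnk13, a potassium leak channel, 2.10 ± 0.37, Prkg2, a cGMP-dependent kinase, 2.52 ± 0.43 and Thbd, which encodes thrombomodulin, 0.62 ± 0.12. Reln, Fcrls, Sdc4, Rin2, Cmtm6, Phlda1, Rnf125, Ddit4l, AI182371, 9030617O03Rik and 1810011O10Rik were also among the 40, with block values between 0.47 and 1.51. The block values of all these genes passed the threshold, with adjusted p of 0.000224 for S100a4 to 0.0284 for Thbd.

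Enzymes and transporters were also among the 40. Aldh1a3, a retinaldehyde dehydrogenase known as a marker of dedifferentiated beta cells, had 5.94 and 6.09 CPM in knockout against 2.59 and 2.77 CPM in control after vehicle, 8.11 and 7.53 CPM against 2.91 and 2.56 CPM at 24 h after STZ, and 62.8 and 70.0 CPM against 18.3 and 17.8 CPM at 4 wk. Of 22 genes disallowed in mature beta cells it was the 1 shared member, while 13 were lower in knockout after vehicle (7.68% of all genes) and 21 were higher at 24 h after STZ (23.7% of all genes). Ppa1, an inorganic pyrophosphatase, had log2 fold changes of 0.41 ± 0.10, 0.81 ± 0.10 and 1.59 ± 0.10, and Cyp4a32, a fatty acid hydroxylase, 1.81 ± 0.26, 1.84 ± 0.23 and 1.45 ± 0.23. Slc3a1 and Slc6a19, amino acid transport genes of kidney and intestine, had 1.36 and 0.87 after vehicle but 4.48 and 4.37 at 4 wk, and Chp2, which is expressed in intestine, 1.63 after vehicle and 4.25 at 4 wk. Slc6a19 did not pass the block fit (1.82 ± 0.60, adjusted p = 0.121). Tmprss2, an epithelial serine protease, had 0.56, 0.33 and 1.10. At 4 wk the intestine list took 1.52 and 1.47% of counts in knockout against 0.0625 and 0.0581% in control, and its part in the sizes of Slc3a1, Slc6a19 and Chp2 was not tested.

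In knockout, 17 genes were lower in each condition, and several encode metabolic enzymes. Glul, glutamine synthetase (chr1:153899929-153909723), had 253.3 and 232.1 CPM in knockout against 411.0 and 411.6 CPM in control after vehicle, 214.5 and 220.4 CPM against 349.1 and 361.3 CPM at 24 h after STZ, and 151.3 and 178.7 CPM against 388.0 and 427.6 CPM at 4 wk. The genotypes stayed apart in each condition, with log2 fold changes of -0.76 ± 0.11, -0.71 ± 0.11 and -1.31 ± 0.11 (adjusted p = 0.00231, 0.000899 and 4.22e-05). Fh1, fumarase of the citric acid cycle (chr1:175601378-175625635), had 52.2 and 53.6 CPM in knockout against 78.1 and 74.5 CPM in control after vehicle, 49.0 and 45.4 CPM against 72.6 and 75.9 CPM at 24 h after STZ, and 43.8 and 41.8 CPM against 103.4 and 96.5 CPM at 4 wk. Its log2 fold changes were -0.53 ± 0.09, -0.65 ± 0.09 and -1.22 ± 0.09. Mthfd2, a mitochondrial enzyme of folate metabolism, had -0.51 ± 0.09, -0.27 ± 0.09 and -0.95 ± 0.10, and Aldh1l2, a second mitochondrial folate enzyme, chosen after its values were seen, was shared with a block value of -0.74 (adjusted p = 0.0325). Under the pan-endocrine scale the block values of Mthfd2, Fnip2 and Pdcd4 were slightly above 0 and did not pass.

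**Figure D4:**
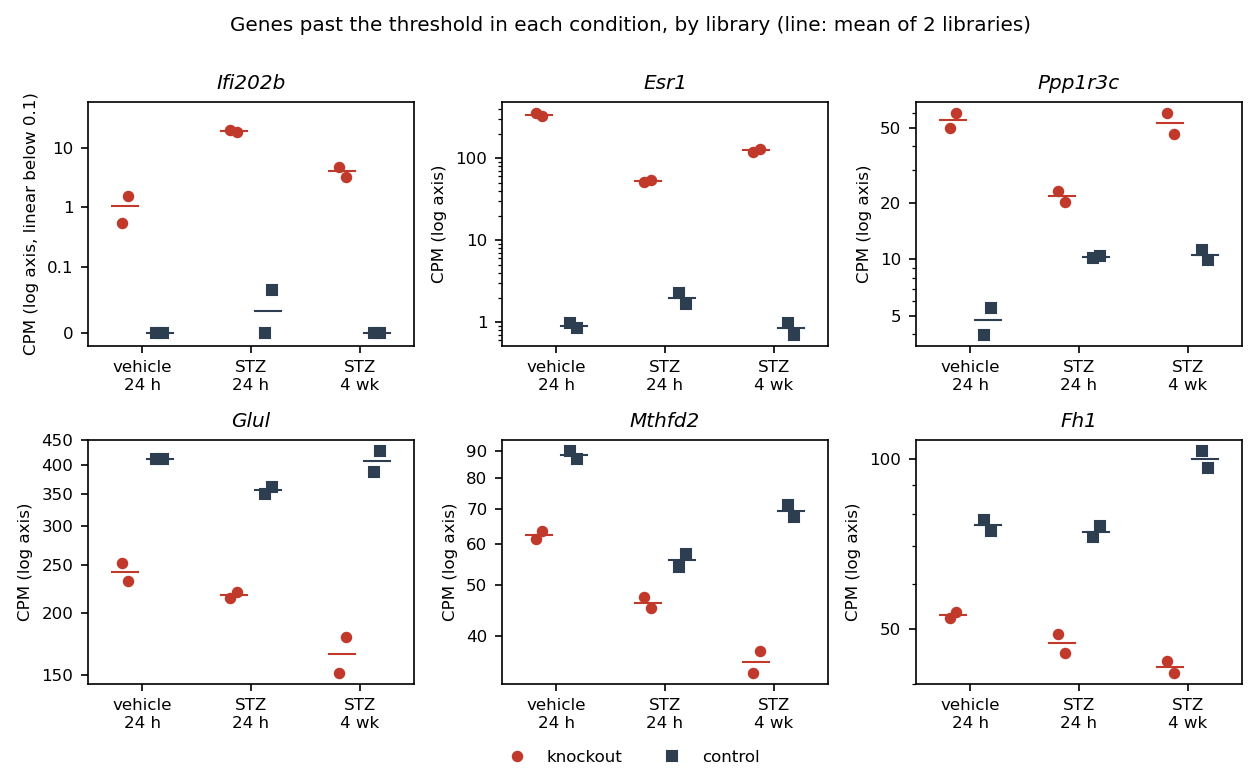
CPM (log axis, linear below 0.1 for Ifi202b) in each library for 3 genes higher (Ifi202b, Esr1, Ppp1r3c) and 3 lower (Glul, Mthfd2, Fh1) in knockout, with knockout left of control in each condition and lines at the mean of 2 libraries. The genotypes do not overlap in any condition for any of the 6 genes.

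The 17 also include Gad1, Tph2, Kcnf1, Nrcam and Cntnap2. Gad1, which makes GABA and is abundant in beta cells, had 98.0 and 107.1 CPM in knockout against 157.2 and 158.7 CPM in control after vehicle, 17.4 and 15.8 CPM against 103.2 and 99.96 CPM at 24 h after STZ, and 53.4 and 45.7 CPM against 115.8 and 100.6 CPM at 4 wk. Tph2, a tryptophan hydroxylase of serotonin synthesis, had log2 fold changes of -1.48 ± 0.25, -2.78 ± 0.27 and -0.89 ± 0.25. Kcnf1, a silent subunit of voltage-gated potassium channels, had 2.83 and 2.53 CPM in knockout against 17.8 and 17.6 CPM in control after vehicle, 0.864 and 1.11 CPM against 8.87 and 7.39 CPM at 24 h after STZ, and 3.11 and 2.22 CPM against 8.001 and 7.73 CPM at 4 wk. Its log2 fold changes of -2.72 ± 0.21, -3.04 ± 0.22 and -1.56 ± 0.20 were among the largest losses. The adhesion genes Nrcam and Cntnap2 had -0.68 and -0.52 after vehicle and -2.08 and -4.28 at 24 h after STZ, and Cntnap2 did not pass the block fit (-2.08 ± 0.54, adjusted p = 0.0772). The pan-endocrine list moved beside them, at 3.02 and 3.10% of counts in knockout against 1.64 and 1.71% in control after vehicle, but at 0.545 and 0.556% against 2.27 and 2.26% at 24 h. The difference after vehicle in these genes thus stood beside a higher endocrine share in knockout, and that after STZ beside a lower one; its part in the sizes was not tested.

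The rest of the 17 had mixed roles. Trib1, a pseudokinase scaffold, had -1.16 ± 0.10, -0.66 ± 0.10 and -0.36 ± 0.10, and Pdcd4, an inhibitor of translation, -0.59 ± 0.11, -0.51 ± 0.11 and -0.41 ± 0.11. Lefty1, an inhibitor of Nodal signalling, had -0.73 ± 0.18, -1.03 ± 0.18 and -0.86 ± 0.18, and the imprinted noncoding gene Peg13 -0.54 ± 0.10, -1.11 ± 0.10 and -0.76 ± 0.10. Angptl7 and Fam196a fell most at 4 wk, by 3.10 and 3.75 on the log2 scale. Fnip2, a folliculin partner, and Filip1 had block values of -0.59 and -0.90. Gkn3, a gastrokine of the stomach lining, was at 0 counts in knockout after vehicle against 231 in control, at least 112-fold lower, and its block fit did not pass (adjusted p = 0.1). The stomach list took 0.0140 and 0.0113% of counts in knockout against 0.0621 and 0.0559% in control after vehicle. At 24 h after STZ it took 0.0395 and 0.0406% against 0.0325 and 0.0325%. Its part in the size of Gkn3 was not tested. Muc6 of this list was shared but is not among the 17 (block -5.15, adjusted p = 0.0325).

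By the block fit, 12 genes were named for the largest gains among shared genes with a mean CPM of at least 2 and 12 for the largest losses. The gains were those of Defa24, a Paneth cell defensin, Dnase1, Slc15a1, the intestinal peptide transporter, Guca2b, which encodes uroguanylin, Sis, sucrase-isomaltase, Naaladl1, Gzmb, which encodes granzyme B, Muc2, the goblet cell mucin, Prap1 and Mogat2, together with Ifi202b and Esr1. None of these 10 passed in each condition. Dnase1 had 0.0216 and 0 CPM in knockout and 0 counts in control after vehicle, 0.226 and 0.287 CPM against 0 counts at 24 h after STZ, and 58.3 and 60.3 CPM against 0.0821 and 0.146 CPM at 4 wk. Defa24, Dnase1 and Guca2b reached the mean of 2 CPM mainly through the 4 wk knockout libraries, where Defa24 had 51.4 and 41.0 CPM and Guca2b 117.3 and 232.1 CPM. So did Naaladl1, Gzmb, Mogat2 and Muc2, with means of 65.7, 12.7, 87.0 and 66.5 CPM in those libraries. Slc15a1 did as well, with 53242 counts in knockout at 4 wk against 1301 at 24 h after STZ. Over the vehicle group, Defa24, Dnase1, Guca2b and Gzmb had 2 to 3 counts in knockout and 0 in control, so no fold was computed there. After vehicle Sis had 6 counts in knockout against 3 in control, which did not differ beyond counting error (ratio 1.38, 95% exact interval 0.294 to 8.51, counting error only). Of the exonic bases of Defa24, 67.3% overlap those of Defa6 on the same strand, so its counts are uncertain.

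Intestine and lymphocyte markers as lists did not share a direction over the conditions. Of 20 intestine genes tested, 4 were shared, all higher (Sis, Muc2, Muc13 and Defa24), beside 1.01% of all genes. None of the 4 passed the threshold after vehicle, where their sign rests on few counts. Over that group Sis had 6 counts in knockout against 3 in control and Muc13 35 against 13. Muc2 had 6 against 0 and Defa24 2 against 0. In knockout, 10 of the 20 were lower after vehicle, 16 higher at 24 h after STZ and 19 higher at 4 wk, beside 7.68%, 23.7% and 19.9% of all genes, and the median block value of the list was 3.97. The list took 0.0720 and 0.0761% of counts in knockout against 0.400 and 0.395% in control after vehicle, and 0.5004 and 0.477% against 0.0947 and 0.0931% at 24 h after STZ. Of 18 lymphocyte genes, 3 were shared and higher (Cd8a, Zap70 and Gzmb), with 6 lower after vehicle and 18 and 17 higher at 24 h and 4 wk after STZ, to be read beside the same shares of all genes. The vehicle sign of these 3 also rests on few counts, and none passed the threshold there. Cd8a had 27 counts in knockout against 6 in control, Zap70 9 against 0 and Gzmb 3 against 0. The summed share of the lymphocyte list was 0.000755 and 0.000528% in knockout against 0.00205 and 0.00235% in control after vehicle, and 0.0479 and 0.0473% against 0.000599 and 0.000711% at 24 h after STZ. With an intestine score as a covariate, 126 genes were shared, 92 of them among the 240.

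**Figure D5:**
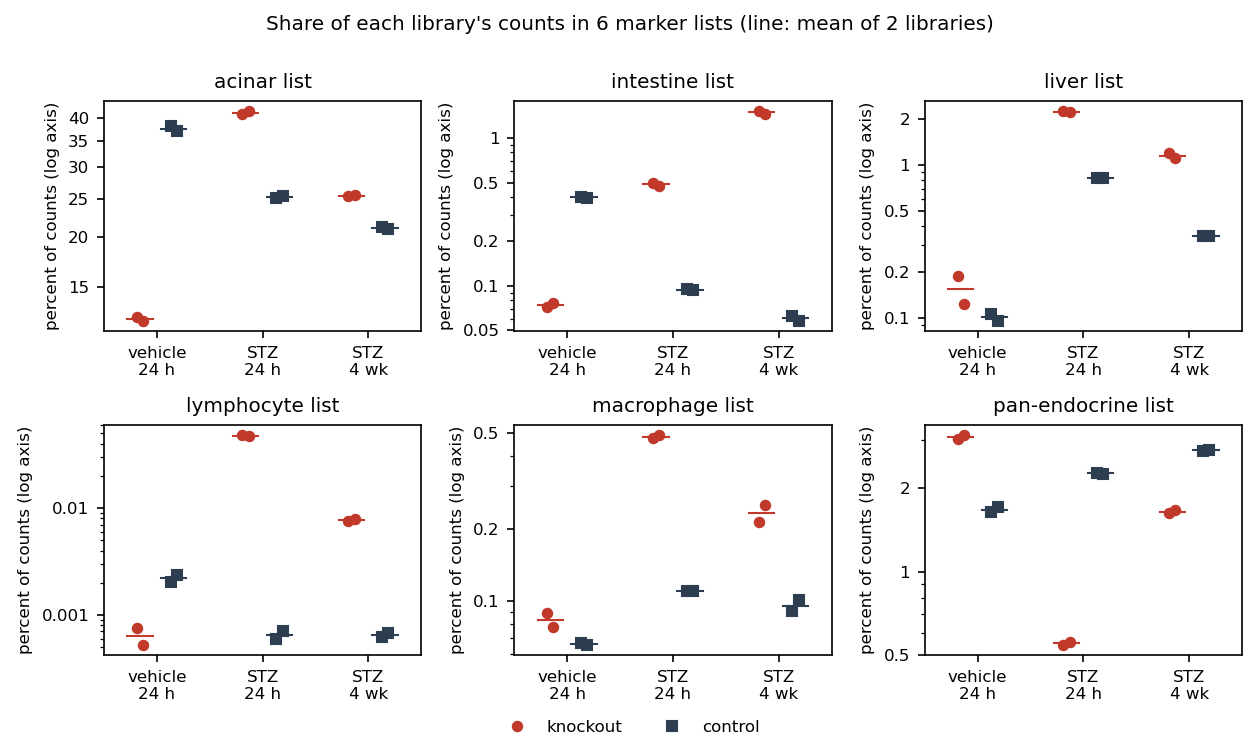
Percent of each library's counts (log axis) in 6 marker lists, with knockout left of control in each condition and lines at the mean of 2 libraries. Acinar, intestine and lymphocyte shares are lower in knockout after vehicle and higher after STZ, and the pan-endocrine share shows the opposite order.

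The 12 largest losses included Angptl7, Kcnf1, Nrcam and Gad1 from the stricter set. The others were Hsd3b5, a steroid dehydrogenase of liver (block -2.67), the potassium channel gene Kcnj12 (-1.50), the cadherin gene Cdh7 (-1.49), the pseudogene Bambi-ps1 (-1.43), Arhgap36 (-1.21), Tnfrsf9, a costimulatory receptor (-1.11), Cttnbp2 (-1.07) and the purinergic receptor gene P2ry1 (-1.06). Hsd3b5 had 0 counts in knockout and 3 in control after vehicle, so no fold was computed there and its sign rests on almost no counts. For P2ry1 the difference was seen after vehicle, with 56.7 and 82.7 CPM in knockout against 158.4 and 171.7 CPM in control, and at 24 h after STZ, with 32.4 and 31.6 CPM against 103.8 and 91.5 CPM. At 4 wk its values of 70.9 and 47.4 CPM in knockout and 88.4 and 59.4 CPM in control overlapped.

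Cell identity and injury lists were also searched for members. With 1.38% of all genes shared, a list of this size can hold 0 or 1 without standing apart from the rest. No gene of the 16 of insulin, amylin and prohormone processing, 17 beta-cell transcription factors, 23 pan-endocrine, 25 exocytosis, 31 macrophage or 31 acinar genes was shared, beside 1.38% of all genes. Of 19 genes of glucose sensing, 1 was, the muscarinic receptor gene Chrm3, with a block value of -0.98 ± 0.22 (adjusted p = 0.0494) that came to -0.22 ± 0.09 after vehicle, -1.81 ± 0.09 at 24 h after STZ and -0.91 ± 0.09 at 4 wk. Ins1, Ins2, Glp1r, Slc2a2 and Mafa did not pass the block fit, with values of -1.38, -0.91, -1.35, -0.93 and -1.29 and adjusted p of 0.1, 0.271, 0.0742, 0.158 and 0.425. Gcg was not shared either, at -0.43 (adjusted p = 0.387). Cdkn1a (1.43, adjusted p = 0.0889), Lyz2 (1.53, 0.187) and Lgals3 (2.89, 0.162) did not pass, and their values after vehicle were -0.10, -0.92 and -1.23. Among 38 interferon-stimulated genes, Igtp was shared (0.74, adjusted p = 0.0345), and of 33 p53 targets Tnfrsf10b was, beside 1.38% of all genes.

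Cholesterol synthesis had 3 shared genes of 22 listed and tested, beside 1.01% of all genes that were shared and higher in knockout: the sterol enzyme genes Ebp and Hsd17b7 and Stard4, which carries sterol between membranes. Their block values were 0.44 ± 0.09, 0.74 ± 0.14 and 0.69 ± 0.15, with adjusted p of 0.0339, 0.028 and 0.0479. The other 19 members did not pass, and the median of the list was 0.11. After vehicle 9 of the 22 were higher (1.96% of all genes), and at 24 h after STZ 2 were higher and 7 lower (23.7% and 19.4% of all genes). At 4 wk 4 were higher and 4 lower (19.9% and 7.89% of all genes). By edgeR's test within a condition, Ebp and Hsd17b7 did not pass after vehicle (adjusted p = 0.265 and 0.148). Stard4 did not pass at 24 h after STZ (adjusted p = 0.321). Gss and G6pdx of the antioxidant list were shared with 0.93 and 0.42, Pgk1 of glycolysis with 0.54 and Hhex of the delta-cell list with 0.71, with adjusted p of 0.0473, 0.0199, 0.0275 and 0.0389. No respiratory chain, unfolded protein, heat shock, replication or immediate early gene was shared, beside 1.38% of all genes.

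The members lay on all 19 autosomes and the X chromosome. Chromosome 3 had 23 shared genes of 870 tested (2.64%), chromosome 10 had 17 of 826 (2.06%) and chromosome 8 had 5 of 906 (0.552%), beside 1.38% of all genes. Next to each other and in the same direction stood 7 pairs of the shared genes reported, among them Ppp1r3c with 1500017E21Rik on chromosome 19, S100a4 with S100a6 on chromosome 3, Il22 with Iltifb on chromosome 10 and Camk4 with Stard4 on chromosome 18. How many such pairs a random draw of genes would hold was not tested, so the 7 only describe these genes. Of 1033 genes tested on chromosome 1, 7 passed in each condition (0.678%), beside 0.327% of all genes. Among these 7, Ifi202b, Fh1, Lefty1 and Tlr5, singled out after their values were seen, lay between positions 173962569 and 182976044, with Ifi202b and Tlr5 higher and Fh1 and Lefty1 lower. Whether that interval holds more members than its number of genes would give was not tested. Shared genes had a median mean level of 8.73 CPM, those lower in knockout 20.6 CPM and those higher 6.86 CPM, beside 10.8 CPM over all genes tested.

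A shared sign did not mean a shared size. The test of a difference of the genotype effect between conditions passed for 6558 of all genes tested (37.7%), for 113 of the 240 (47.1%) and for 32 of the 57 (56.1%). Of the 57, the largest size was seen in 17 genes after vehicle, in 16 at 24 h after STZ and in 24 at 4 wk. Over all 17411 genes tested these counts were 2935, 9461 and 5015. The 25 others, for which no difference between conditions passed, included 1500017E21Rik, S100a4, Smo, Rin2 (0.80 ± 0.16, 0.69 ± 0.16 and 0.75 ± 0.16), Sdc4 (0.60 ± 0.12, 0.74 ± 0.12 and 0.50 ± 0.12), Pdcd4 and Lefty1. A p that misses the threshold does not show that their sizes were equal. The block fit counts differences in size between conditions as spread, and its common dispersion was 0.175, beside 0.0493 in the fit of 6 group means. Averaging the 3 contrasts of the group-mean fit gave 1645 shared genes, 935 higher and 710 lower, all 240 of the block fit among them.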

How the data were processed

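RNA of 12 islet libraries, 2 in each of 6 groups, was analysed from the gene table of estimated counts that the authors deposited. Per the file headers, StringTie 1.3.6 estimated transcripts against a fixed mm10 RefSeq annotation with a stranded setting. Which aligner was used is not given there. The deposited transcript files also hold read coverage per exon, which was used for Arntl and Esr1. For Arntl, coverage was divided by the transcript mean, with a pseudocount of 0.1 before logs. That mean summed the covered bases of all Arntl transcripts over the length of the transcript described. For Esr1, coverage was scaled to library size and no logs were taken.

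Totals were 101772241 to 127207523 estimated counts. These deposited values are whole numbers and entered the fits as they stand. Of 24421 genes, 17411 passed edgeR's default expression filter, and TMM factors ran from 0.83 to 1.21. Genotype was tested with edgeR 4.0.16 (quasi-likelihood, robust, R 4.3.3) with condition as a block, on all 12 libraries, with Benjamini-Hochberg adjustment over all genes tested. A fit of 6 group means gave the effect in each condition and the test of their difference. The method was tested on simulated data. DESeq2 1.42.0 was an alternative. Alternatives also covered scaling, filtering, left-out libraries and conditions, and covariates.

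The members and the 39 gene lists were chosen with earlier results of these data known. The genes named are Arntl, the 12 largest gains and 12 largest losses among shared genes with a mean of at least 2 CPM, up to 3 shared members of each list, and a fixed set. Kept in the fits and in counts over all genes, 3 genes are not reported here and were left out of the lists. The 57 genes past the threshold in each condition, further list members and genes with an opposite or missing call were named after their values were seen. A fold against a group at 0 counts uses a floor of 3 counts over the group. Intervals cover counting error only.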

Additional observations from a re-analysis of the deposited data

Results flagged for a closer look

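The genotype effect of the genes below differed in size or direction between the 3 conditions, by edgeR's quasi-likelihood test of genotype by condition. The value beside each gene is its adjusted p over all genes tested. Across all genes 37.7% passed this test. Past the threshold and higher in knockout in each condition, with a differing size, were Slc6a19 (1.35e-06), Esr1 (2.93e-05), Ppp1r3c (0.000375), Chp2 (0.000395), Ppa1 (0.000604), Nfil3 (0.000742), Slc3a1 (0.000953), Prkg2 (0.00176), Kcnk13 (0.00179) and Npas2 (0.00181). Also in this set were 9030617O03Rik (0.00206), Cry1 (0.00312), Tmprss2 (0.00468), Thbd (0.00474), Aldh1a3 (0.0215), Reln (0.0339) and Tnfrsf10b (0.0355). Past the threshold and lower in knockout in each condition, with a differing size, were Cntnap2 (2.17e-06), Gad1 (6.31e-05), Gkn3 (0.000322), Nrcam (0.0027), Trib1 (0.00464), Filip1 (0.00484), Fh1 (0.00572), Angptl7 (0.00683), Kcnf1 (0.00705) and Tph2 (0.00797). Also in this set were Mthfd2 (0.00907), Fam196a (0.0102), Glul (0.0241) and Peg13 (0.0244). Fitted values above 0 in the 3 conditions, at least one of which did not pass the threshold, were those of Muc13 (0.000695), Igtp (0.00151), Gss (0.00253), Per2 (0.00329), Sis (0.00584), Mogat2 (0.00745), Prap1 (0.00769) and Stard4 (0.00822). Fitted values below 0 in the 3 conditions, at least one of which did not pass the threshold, were those of Chrm3 (4.65e-05), Cttnbp2 (0.000898), Bambi-ps1 (0.0036), Cdh7 (0.00484), Ins1 (0.00917), Arhgap36 (0.0143) and P2ry1 (0.0475). Fitted values of both signs passed the threshold, in different conditions, for Lyz2 (9.46e-07), Lgals3 (1.13e-06), Arntl (4.81e-05) and Dbp (0.00332). Fitted values of both signs, where the values of one sign did not pass the threshold, were those of Cdkn1a (3.98e-06), Glp1r (8.09e-06), Slc2a2 (2.45e-05), Gcg (3.16e-05), Nr1d1 (0.0116) and Ins2 (0.0153).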

How the results depend on the processing

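The 240 shared genes and the 57 past the threshold in each condition depended on the settings. With total counts as the scale they came to 964 and 281, and 9990 genes differed between conditions. With pan-endocrine genes as the scale 144 were shared, and 3 genes changed sign and did not pass: Fnip2 (0.0140), Mthfd2 (0.0136) and Pdcd4 (0.11). The DESeq2 Wald test gave 1267 and 110. The mean of 3 group contrasts gave 1645, an acinar score as covariate 1599, and an intestine score, chosen after seeing the data, 126. Without vehicle 6577 genes were shared, without STZ at 24 h 53 and without STZ at 4 wk 5. Without vehicle, Arntl was at -0.55. Leaving out 1 library gave 95 to 669 shared genes (lowest without control STZ 4 wk B, highest without knockout vehicle B) and 34 to 61 in each condition, with 37 and 34 without control vehicle A and B. Other single libraries also moved the shared count by over 1.5 times: control vehicle A gave 401, knockout vehicle A 549, control STZ 24 h A and B 102 and 98, control STZ 4 wk A 97, knockout STZ 24 h A and B 98 each, and knockout STZ 4 wk A and B 125 and 106. The letter within condition as a replicate block gave 32 shared genes, 29 of them among the 240, and 172 in each condition. No label says that the letters pair the libraries, and the main fit took them as unpaired. The deviations of A from B correlated between genotypes at 0.12 after vehicle and 0.05 at 24 h after STZ, but at 0.48 at 4 wk. A factor shared by libraries of one letter at 4 wk is therefore possible and was not tested. DESeq2 size factors (267 and 55) and no filter (219 and 53) stayed within 1.5 times. Of 83 named genes that passed, 83 kept their call under DESeq2 size factors, 56 with the intestine score, 43 on the pan-endocrine scale, 28 without STZ at 24 h and 22 with the replicate block, and without STZ at 4 wk 4 of 82 did. Taken over the 3 conditions, Arntl exon 8 stayed lower under all alternatives run. Its difference was -1.06 to -0.86 with 1 library left out and -0.54 with a pseudocount of 1. As coverage scaled to library size it was -0.76 (p = 0.0463 in the exact permutation test), but exon 8 was not lower after vehicle on that scale. The causes of these shifts were not tested. With 2 libraries per group, genes with few counts in a condition have little precision there.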
